A study of Mus musculus with 20 samples.

Results

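Interferon-stimulated genes are the genes that cells switch on when interferon, the secreted alarm signal of antiviral defence, binds its receptors. The 9 described here are Irf7, Isg15, Ifit1, Ifit3, Oasl2, Gbp2, Gbp3, Cxcl9 and Cxcl10. They were chosen by name and found by Ensembl gene ID among the 55401 gene IDs of the deposited count table, and all 9 passed the filter on low counts that left 14542 genes to be tested. Their RNA was measured by sequencing total liver RNA of C57BL/6 mice, an inbred laboratory strain, all labelled WT. The HFD group (10 libraries, HFD 1 to HFD 10) received a high-fat diet for 12 weeks, with 60% fat, 20% carbohydrate and 20% protein, and the chow group (10 libraries, chow 1 to chow 10) received a standard laboratory chow. The design text speaks of 3 HFD groups beside 1 chow group, but the 10 HFD samples carry identical labels and were treated as 1 group. Ages are not in the labels. Nothing in them states whether the 20 samples came from different mice, and the p-values here cover only the spread among libraries, which may be technical. No batches are named, so diet and handling cannot be told apart.

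Type I interferons act through the receptor chains Ifnar1 and Ifnar2 and a transcription factor complex that holds Stat2 and Irf9 and binds the interferon-stimulated response element (ISRE) in promoters. Interferon gamma, made mainly by T and NK cells, acts through Ifngr1 and Ifngr2, and many of its target promoters carry gamma-activated (GAS) sites. Irf7, a transcription factor that amplifies interferon production, Isg15, a ubiquitin-like protein, the RNA-binding antiviral proteins Ifit1 and Ifit3, and Oasl2, of the oligoadenylate synthetase family, are classical type I interferon targets and are called type I-linked below. The guanylate-binding proteins Gbp2 and Gbp3, GTPases that attack pathogens inside cells, and the chemokines Cxcl9 and Cxcl10, which attract T and NK cells bearing the receptor Cxcr3, respond strongly to interferon gamma and are called gamma-linked. Many genes of either kind respond to both interferons. In liver, hepatocytes, Kupffer cells and endothelial cells can all express them.

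The promoters of the members were compared by their letters. Because the members were chosen as interferon-stimulated genes, ISRE matches among them are not independent of that choice. In the 250 bases before the RefSeq transcription start (GRCm38.p6), an ISRE was searched as GAAANNGAAA on both strands. It was found in 6 of the 9 members and in 936 of 27025 mouse genes. Counted by window, it was in 2.98% of 32851 mouse promoter windows of that length. The 6 windows are shown because they hold those letters, which are in capitals, 5′ to 3′ on the gene's own strand.
Isg15 (chr4:156200819-156201068, minus strand): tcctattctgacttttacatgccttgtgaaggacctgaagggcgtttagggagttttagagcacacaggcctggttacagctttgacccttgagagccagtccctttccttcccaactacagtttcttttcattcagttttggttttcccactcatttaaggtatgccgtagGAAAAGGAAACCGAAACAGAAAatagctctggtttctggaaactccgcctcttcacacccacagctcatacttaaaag
Ifit1 (chr19:34640639-34640888, plus strand): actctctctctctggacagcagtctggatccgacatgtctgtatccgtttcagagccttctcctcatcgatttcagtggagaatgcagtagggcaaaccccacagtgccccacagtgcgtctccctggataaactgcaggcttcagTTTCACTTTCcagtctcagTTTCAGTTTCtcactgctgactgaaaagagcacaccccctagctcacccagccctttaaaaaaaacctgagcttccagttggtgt
Ifit3 (chr19:34583279-34583528, plus strand): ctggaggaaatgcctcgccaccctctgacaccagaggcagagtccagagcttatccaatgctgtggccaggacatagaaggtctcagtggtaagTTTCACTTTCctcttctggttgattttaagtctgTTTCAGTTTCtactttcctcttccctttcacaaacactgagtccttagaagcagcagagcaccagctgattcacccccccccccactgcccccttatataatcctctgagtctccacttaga
Gbp2 (chr3:142620413-142620662, plus strand): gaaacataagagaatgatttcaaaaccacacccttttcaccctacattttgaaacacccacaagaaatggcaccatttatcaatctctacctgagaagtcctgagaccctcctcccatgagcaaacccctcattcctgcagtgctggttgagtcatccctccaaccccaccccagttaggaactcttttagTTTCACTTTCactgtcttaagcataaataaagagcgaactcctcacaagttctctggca
Gbp3, the more upstream start (chr3:142559794-142560043, plus strand): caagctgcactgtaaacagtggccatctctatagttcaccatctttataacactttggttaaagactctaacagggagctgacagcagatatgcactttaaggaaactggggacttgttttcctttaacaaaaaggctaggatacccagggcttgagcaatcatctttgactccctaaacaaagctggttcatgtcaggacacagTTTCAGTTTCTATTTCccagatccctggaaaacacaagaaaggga
Cxcl10 (chr5:92348890-92349139, minus strand): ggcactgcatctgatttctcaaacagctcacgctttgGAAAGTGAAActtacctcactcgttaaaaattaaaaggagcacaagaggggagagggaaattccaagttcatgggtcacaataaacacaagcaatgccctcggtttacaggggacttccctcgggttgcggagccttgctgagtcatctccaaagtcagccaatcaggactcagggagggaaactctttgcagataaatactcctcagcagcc
Isg15 held 3 overlapping matches, 78 to 57 bases before its start, and Ifit1, Ifit3 and Gbp3 held 2 each, which overlap in Gbp3. Ifit1 and Ifit3 shared both 10-base matches letter for letter, at 104 to 95 and 85 to 76 bases before the start of Ifit1 and at 156 to 147 and 122 to 113 bases before that of Ifit3. The Gbp2 match, at 59 to 50 bases before its start, has the same letters as the more upstream match of Ifit1. The windows of Irf7, Oasl2, Cxcl9 and the more downstream start of Gbp3 held no match. A GAS motif searched as TTCNNNGAA, present in 7.02% of all windows, was found in none of the 9 members' windows. A kappaB motif searched as GGGNNNTTCC, the kind of site bound by NF-kappaB and present in 4.65% of all windows, was found only in Cxcl10 among the members, at 159 to 150 and 104 to 95 bases before its start. These matches are letters in a window and say nothing of binding in these livers.

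Of the libraries, HFD 1 and HFD 2 stood apart before any gene was compared. Library totals were 20111896 to 90033879 counts in HFD and 34727227 to 49065587 counts in chow. Transcripts of the mitochondrial genome made up 75.6% of the counts in HFD 1 and 94.4% in HFD 2, with 95% Wilson intervals of 75.56% to 75.60% and 94.43% to 94.44%. Elsewhere their share was 1.34% to 3.10%. Apart from mitochondrial and ribosomal RNA, HFD 1 kept 2237670 counts and HFD 2 kept 2860976. Hepatocyte markers, 9 genes with albumin among them, summed to 22291 CPM (counts scaled to a library size of 1000000 after TMM scaling) in HFD 1 and 18945 CPM in HFD 2, against 54374 to 90894 CPM in the other 8 HFD libraries and 78607 to 125062 CPM in chow. The log2 changes of the 9 members are therefore given with and without these 2 libraries, and those of other genes only in part. Intervals here and below cover counting error only.

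Of the 9 interferon-stimulated genes, 3 rose on the high-fat diet, Gbp2, Gbp3 and Cxcl10, none fell, and 6 did not pass the test (edgeR's quasi-likelihood F test, adjusted p under 0.05 over all genes tested). In that comparison 13.0% of all genes tested were called higher and 7.05% lower. The 3 that rose were all gamma-linked, 3 of 4, while none of the 5 type I-linked members passed. The gamma-linked and type I-linked members were not tested against each other. The wider lists described below did not show that contrast. Of 47 other type I-induced genes 10 rose (median log2 change 0.36), and of 32 other interferon gamma-induced genes 5 rose (median 0.19). The median log2 change of the 9 members was 1.02, against 0.02 over all genes tested. Without HFD 1 and HFD 2, Gbp2 and Cxcl10 rose, 2 of 9 members, beside 17.9% of all genes called higher, and the median was 0.41, against 0.03 over all genes. The median of the 5 type I-linked members was 0.53 with all libraries and -0.34 without HFD 1 and HFD 2, and that of the 4 gamma-linked members was 1.20 and 1.12. In whole liver, fewer cells of a type and less RNA per cell cannot be told apart. Library totals as the only scaling left 1 member called, and tests on FPKM left none. Without HFD 1 and HFD 2, library totals and the test on log2(FPKM + 0.1) called 2 members each, beside 3664 and 3289 of 14842 genes called higher.

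**Figure D1:**
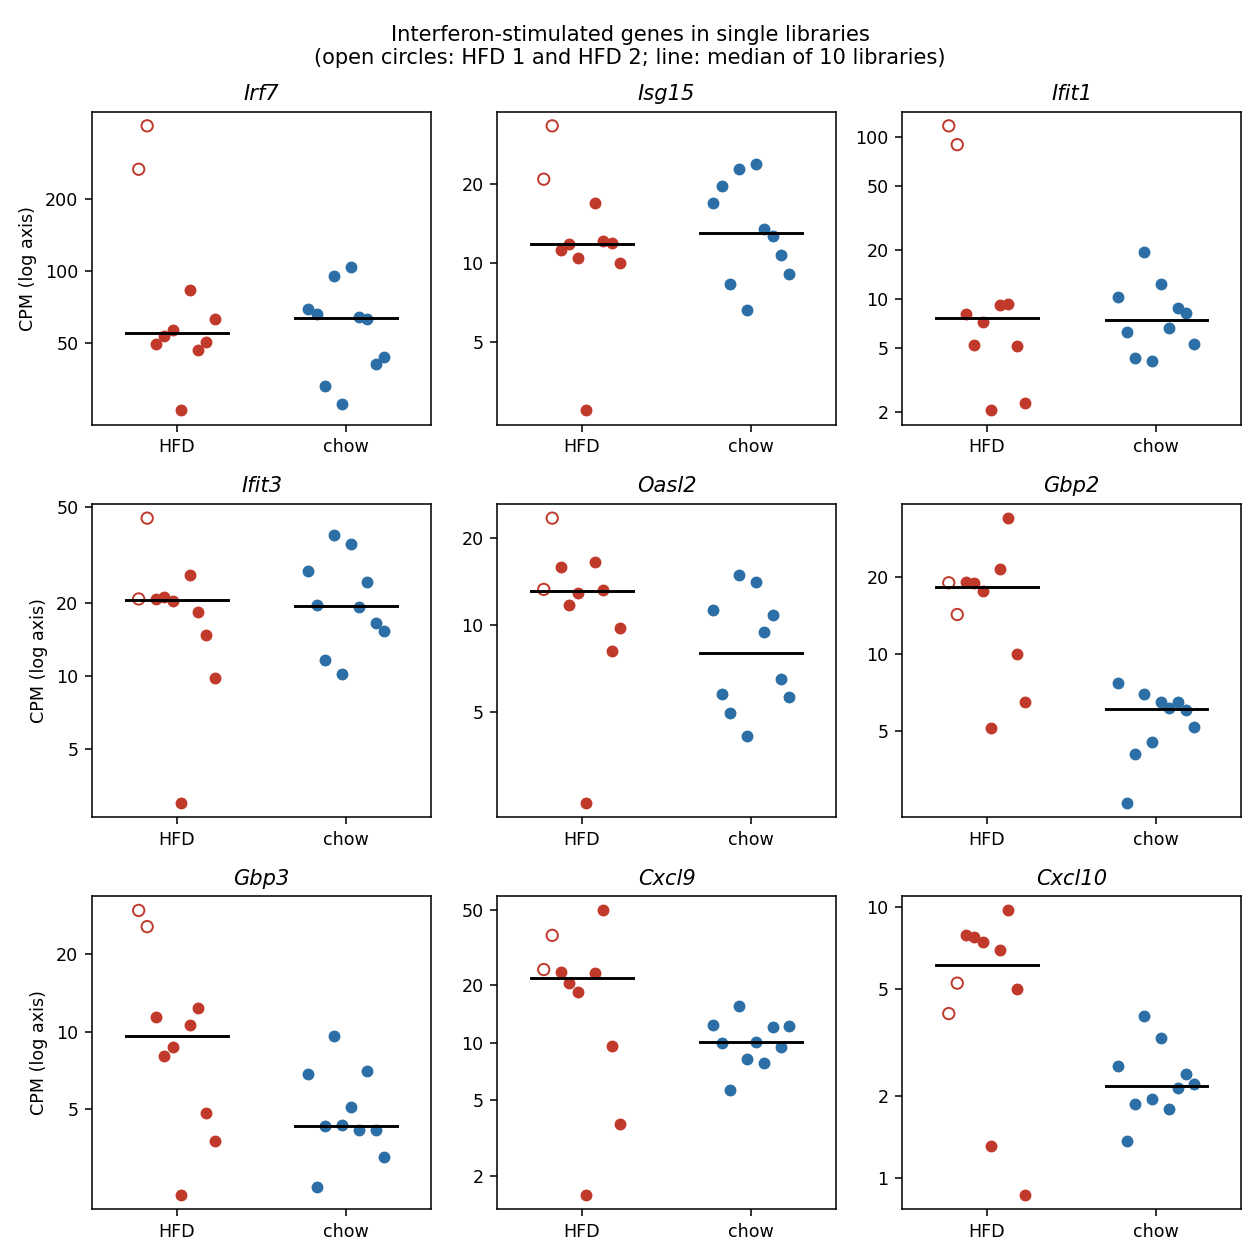
CPM of each member in each library on a log axis, HFD on the left (red) and chow on the right (blue), with a line at the median of 10 libraries and open circles for HFD 1 and HFD 2. For Gbp2 and Cxcl10, 8 of 10 HFD points lie above all chow points, for Isg15 and Ifit3 1 of 10, and the 2 open circles stand far above the rest for Irf7 and Ifit1.

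Among the gamma-linked members, Gbp2 (ENSMUSG00000028270, chr3:142620602-142638008, plus strand) showed the clearest separation. It had a lowest, median and highest level of 5.12, 18.3 and 34.1 CPM in HFD, against 2.62, 6.11 and 7.72 CPM in chow. All HFD libraries but HFD 6 (5.12 CPM) and HFD 10 (6.51 CPM) lay above every chow library. Gbp2 averaged 16.7 ± 8.39 CPM in HFD and 5.64 ± 1.53 CPM in chow (SD, n = 10 each), a 2.95-fold rise (log2 1.56, SE 0.276, edgeR adjusted p = 0.000294). Without HFD 1 and HFD 2 the log2 change was 1.60 (SE 0.294, edgeR adjusted p = 0.000394), and the call held when any single library was left out.

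Gbp3 (ENSMUSG00000028268, chr3:142560026-142573209, plus strand), the neighbour of Gbp2 on chromosome 3, had 2.33, 9.64 and 29.4 CPM as its lowest, median and highest level in HFD, against 2.51, 4.33 and 9.58 CPM in chow. HFD 1 (29.4 CPM) and HFD 2 (25.5 CPM) were its highest libraries, and 5 of 10 HFD libraries lay above all chow libraries. The mean was 11.7 ± 8.99 CPM in HFD and 5.14 ± 2.11 CPM in chow (SD, n = 10 each), a 2.21-fold rise (log2 1.14, SE 0.371, edgeR adjusted p = 0.0328). This call rested on few libraries. In the fit to the other 18 libraries, without HFD 1 and HFD 2, the log2 value was 0.63 and the edgeR adjusted p was 0.119, and the call was also lost when HFD 1, HFD 2, chow 2, chow 3, chow 5, chow 7, chow 9 or chow 10 was left out alone.

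The chemokine gene Cxcl10 (ENSMUSG00000034855, chr5:92346638-92348889, minus strand) had 0.864, 6.09 and 9.72 CPM in HFD, against 1.37, 2.18 and 3.96 CPM in chow, as lowest, median and highest level. In 8 of 10 HFD libraries it exceeded every chow library, while HFD 10 (0.864 CPM) and HFD 6 (1.32 CPM) lay below every chow library. Cxcl10 averaged 5.62 ± 2.90 CPM in HFD and 2.36 ± 0.765 CPM in chow (SD, n = 10 each), a 2.39-fold rise (log2 1.26, SE 0.335, edgeR adjusted p = 0.0107). Without HFD 1 and HFD 2 the log2 change was 1.34 (edgeR adjusted p = 0.0075), and no single library decided the call. The 133 exon bases that Cxcl10 shares with Art3 on the other strand are 5.91% of its exon bases, and whether reads were counted by strand is not stated.

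Cxcl9 (ENSMUSG00000029417, chr5:92321347-92328079, minus strand), which lies beside Cxcl10 on chromosome 5, did not pass the test. Its lowest, median and highest levels were 1.59, 22.0 and 49.5 CPM in HFD, against 5.63, 10.1 and 15.6 CPM in chow. The groups overlapped from both sides, with 7 HFD libraries above every chow library and HFD 6 (1.59 CPM) and HFD 10 (3.76 CPM) below every chow library. Cxcl9 averaged 21.2 ± 14.5 CPM in HFD and 10.4 ± 2.82 CPM in chow (SD, n = 10 each; log2 1.02, SE 0.393, edgeR adjusted p = 0.0703). The edgeR adjusted p was 0.0106 without HFD 6 and 0.0290 without HFD 10, and for the 8 HFD libraries other than HFD 1 and HFD 2 it was 0.116 at a log2 value of 0.90.

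Among the type I-linked members, 2 libraries carried the HFD means of 2 genes. Irf7 (ENSMUSG00000025498, chr7:141262706-141266481, minus strand) had 26.1, 55.3 and 406 CPM in HFD, against 27.8, 63.7 and 104 CPM in chow, as lowest, median and highest level. HFD 1 (267 CPM) and HFD 2 (406 CPM) were the only HFD libraries above the chow range, and the HFD median was below the chow median. Irf7 averaged 110 ± 125 CPM in HFD and 60.7 ± 25.2 CPM in chow (SD, n = 10 each), a log2 value of 0.85 (SE 0.431, edgeR adjusted p = 0.168) that became -0.14 without HFD 1 and HFD 2 (edgeR adjusted p = 0.706).

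Ifit1 (ENSMUSG00000034459, chr19:34640871-34650009, plus strand) had 2.06, 7.62 and 117 CPM as its lowest, median and highest level in HFD, against 4.15, 7.44 and 19.5 CPM in chow. HFD 1 (117 CPM, 405 counts) and HFD 2 (89.5 CPM, 513 counts) stood above all chow libraries, and no other HFD library did. Over all libraries the mean was 25.5 ± 41.6 CPM in HFD and 8.58 ± 4.65 CPM in chow (SD, n = 10 each; log2 1.51, SE 0.677, edgeR adjusted p = 0.121). Without those 2 libraries the log2 value was -0.47 (edgeR adjusted p = 0.307), so that the sign of the Ifit1 difference was set by HFD 1 and HFD 2.

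Ifit3 (ENSMUSG00000074896, chr19:34583531-34588731, plus strand), from the same gene cluster on chromosome 19, was above the chow range in 1 library. It had 2.99, 20.6 and 44.9 CPM in HFD, against 10.2, 19.4 and 38.1 CPM in chow, as lowest, median and highest level. Only HFD 2 lay above the chow range (log2 -0.13, SE 0.322, edgeR adjusted p = 0.812). Without HFD 1 and HFD 2 the log2 value of Ifit3 was -0.34 (edgeR adjusted p = 0.460). The ratio of Ifit1 to Ifit3 counts, which does not depend on scaling, was 5.63 in HFD 1 (95% exact interval 4.37 to 7.33) and 2.00 in HFD 2 (1.72 to 2.33), against 0.231 to 0.688 in the other 8 HFD libraries and 0.318 to 0.512 in chow. Genes with near-identical copies such as Ifit3 and Ifit3b may share reads, and the counting of such reads is not stated. The ratio of Irf7 to Isg15 counts was likewise highest there, at 12.9 in HFD 1 (10.1 to 16.6) and 12.2 in HFD 2 (10.6 to 14.3), against 3.84 to 9.53 in the other 8 HFD libraries and 3.36 to 5.01 in chow.

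Isg15 (ENSMUSG00000035692, chr4:156199424-156200818, minus strand) averaged 14.1 ± 8.15 CPM in HFD and 14.4 ± 6.09 CPM in chow (SD, n = 10 each). Its lowest, median and highest levels were 2.74, 11.8 and 33.2 CPM in HFD, against 6.58, 13.0 and 23.7 CPM in chow. The log2 value of -0.05 (SE 0.312, edgeR adjusted p = 0.934) was far within the spread between libraries, and its sign turned in 9 of the other fits. Without HFD 1 and HFD 2 it was -0.36 (edgeR adjusted p = 0.362). Oasl2 (ENSMUSG00000029561, chr5:114896936-114912234, plus strand) had 2.44, 13.1 and 23.4 CPM in HFD, against 4.15, 7.99 and 14.9 CPM in chow. HFD 2, HFD 3 and HFD 7 lay above every chow library for Oasl2. Its log2 value of 0.53 (SE 0.299, edgeR adjusted p = 0.224) did not pass the test, but did so in voom with sample quality weights (log2 0.70, adjusted p = 0.0171). Without HFD 1 and HFD 2 the Oasl2 value was 0.41 (edgeR adjusted p = 0.338).

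**Figure D2:**
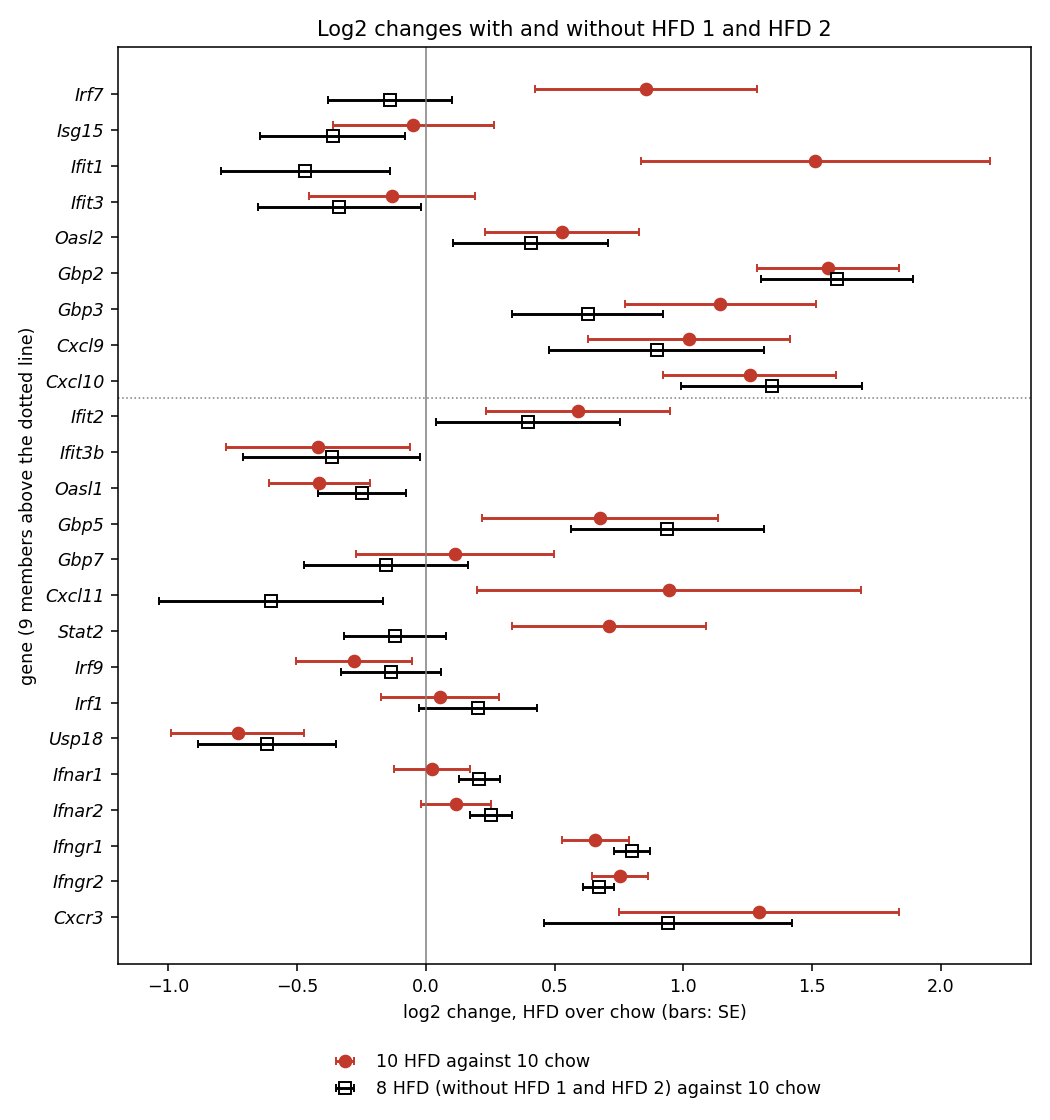
Log2 change of HFD over chow with its SE for the 9 members (above the dotted line) and 15 related genes, with all 10 HFD libraries (red circles) and without HFD 1 and HFD 2 (open squares). Leaving out the 2 libraries moved Ifit1 to -0.47 and Irf7 to -0.14, while Gbp2 stayed near 1.6 and Cxcl10 near 1.3.

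Per kilobase of transcript, on the lengths implied by the authors' FPKM table, the order of levels in HFD was Irf7 (29.2 ± 33.0 CPM per kb), Isg15 (20.1 ± 11.6), Ifit3 (11.5 ± 6.28), Ifit1 (9.59 ± 15.6), Cxcl9 (7.01 ± 4.8), Gbp2 (6.63 ± 3.34), Gbp3 (3.58 ± 2.75), Cxcl10 (2.49 ± 1.29) and Oasl2 (2.00 ± 0.867). No HFD neighbours were apart by more than the sum of their SDs. For the 8 HFD libraries other than HFD 1 and HFD 2 the order was Isg15 (15.5 ± 5.57 CPM per kb), Irf7 (14.2 ± 4.26), Ifit3 (9.61 ± 4.22), Gbp2 (6.62 ± 3.75), Cxcl9 (6.24 ± 5.01), Cxcl10 (2.60 ± 1.43), Gbp3 (2.37 ± 1.14), Ifit1 (2.28 ± 1.08) and Oasl2 (1.78 ± 0.715), again with no neighbours that far apart. In chow the order was Isg15 (20.4 ± 8.66 CPM per kb), Irf7 (16.1 ± 6.66), Ifit3 (12.4 ± 5.38), Cxcl9 (3.44 ± 0.936), Ifit1 (3.23 ± 1.75), Gbp2 (2.24 ± 0.609), Gbp3 (1.57 ± 0.646), Oasl2 (1.37 ± 0.611) and Cxcl10 (1.05 ± 0.340). Only Ifit3 and Cxcl9 are neighbours in the chow order whose means are farther apart than the sum of their SDs. The 3 most abundant members per length were thus type I-linked in both diets, with or without HFD 1 and HFD 2.

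Levels of the members varied widely between libraries of 1 diet, in chow more than those of most genes within the members' range of levels. In HFD the SD of log2 CPM was 0.833 for Gbp2, the lowest of the 9, and 1.95 for Ifit1, the highest. Over the 8 HFD libraries other than HFD 1 and HFD 2 it was 0.474 for Irf7, 0.855 for Ifit1 and 1.61 for Cxcl9, whose highest HFD library was 31.2 times its lowest. Within chow, the SD of log2 CPM had a median of 0.627 over the 9 members, against 0.204 over the 7913 genes tested whose mean level lies in the members' range. Each member's chow SD exceeded that of at least 89.3% of those genes, with Ifit1 the most variable at 0.697 and Cxcl9 the least at 0.414. That range is wide, and no member was set against genes of its own level alone.

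The same livers were high or low for many members. HFD 6 had the lowest HFD level of 8 of the 9 members and was among the 2 lowest for all 9. HFD 10 was among the 2 lowest HFD libraries for 7 members and lowest for Cxcl10. HFD 8 was the highest HFD library for Gbp2, Cxcl9 and Cxcl10, but not for any type I-linked member. In chow, chow 4 was among the 2 highest libraries for all 9 members, chow 3 among the 2 lowest for 7, and chow 5 was the lowest chow library for 5.

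**Figure D3:**
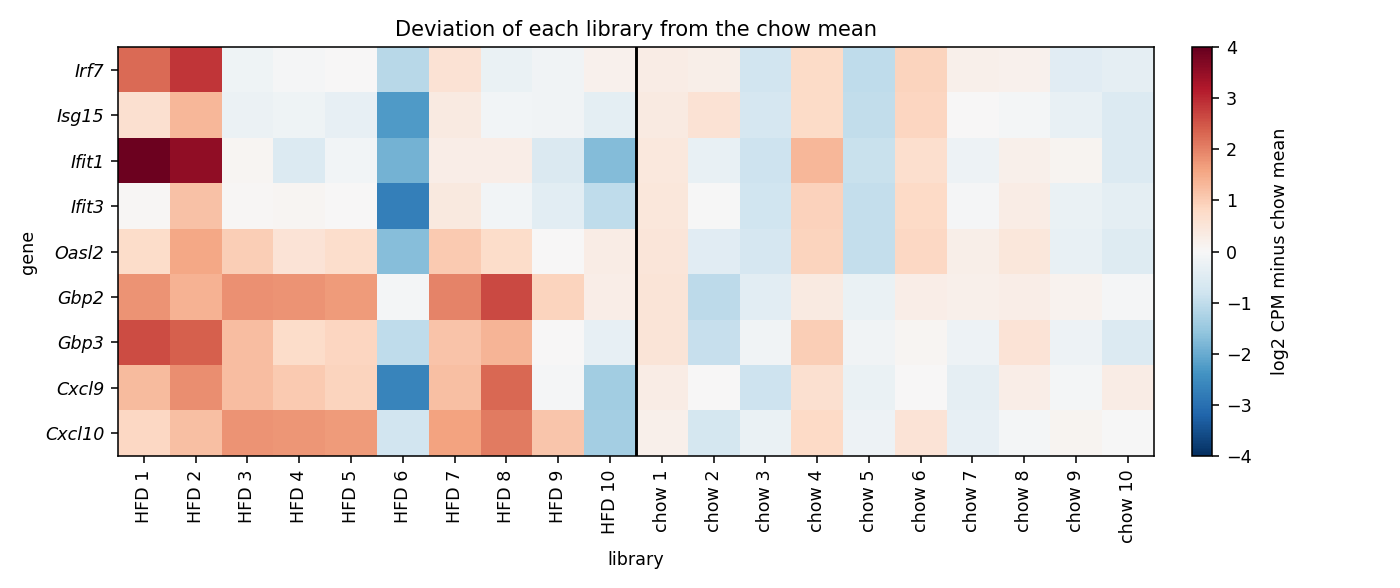
Log2 CPM of each member (rows) in each library (columns, HFD left of the line and chow right of it), minus the mean of that member over the 10 chow libraries. HFD 6 is low for all members but Gbp2, which is near its chow mean there. Irf7 and Ifit1 are high in HFD 1 and HFD 2, and Gbp2 and Cxcl10 exceed every chow library in 8 of 10 HFD libraries.

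Pairs of members were correlated across the 10 libraries of each diet on log2 CPM (36 pairs per diet, 72 in all, two-sided permutation tests with 100000 resamples, Benjamini-Hochberg adjusted over the 72). All 72 coefficients were positive, and 42 pairs passed, 22 in HFD and 20 in chow. By Spearman's rho 24 passed, 21 of them among the 42. Each pair was also tested without the 2 libraries farthest from the median of its first gene, in the order of the members given at the start. These libraries differ between pairs, and leaving them out narrows the range of that gene and leaves 8. In this form 15 passed, of which 10 were among the 42 (3 in HFD and 7 in chow). The other 5, all in HFD and all with Ifit1, were not. In HFD the 2 libraries HFD 1 and HFD 2 form a group of their own for Irf7 and Ifit1, so the other 8 HFD libraries were also taken alone. Among these 8, Pearson's r was 0.328 to 0.985 and 28 of 36 pairs passed by the exact permutation test. HFD 6, the lowest HFD library for most members, is among these 8. Libraries share their RNA quality and cell make-up across all genes, and their part in these correlations was not tested.

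In HFD the 6 gamma-linked pairs had r of 0.590 to 0.936 over 10 libraries, and 5 passed, but 1 passed without the 2 farthest libraries, where the median r was 0.624. For Gbp2 and Cxcl9 in HFD r was 0.936 (permutation p = 0.00029, adjusted p = 0.0024) and rho was 0.733 (permutation p = 0.0205, adjusted p = 0.0509). Without its 2 farthest libraries, HFD 6 and HFD 10, r was 0.764 (adjusted p = 0.111 by permutation), so the relation of Gbp2 and Cxcl9 rested in part on those libraries. Over the 8 HFD libraries without HFD 1 and HFD 2 all 6 gamma-linked pairs passed by the exact permutation test, with r of 0.886 to 0.985. These 8 keep HFD 6 and HFD 10, so they do not show the relation without those 2 low libraries. The pair of Ifit1 and Gbp3 crossed both kinds, with r = 0.953 over those 8 libraries (exact permutation test, adjusted p = 0.000765). Irf7 and Cxcl10 were the least related pair among them, with r = 0.328 (exact permutation test, adjusted p = 0.420).

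Within chow, type I-linked members moved together most closely. All 10 of their pairs passed, with r of 0.810 to 0.967 and a median of 0.919, and 7 passed without the 2 farthest libraries. For Irf7 and Isg15 in chow r was 0.962 (permutation p = 2e-05, adjusted p = 0.00072) and rho was 0.976 (permutation p = 3e-05, adjusted p = 0.00072), with r = 0.927 without the 2 farthest libraries. Of the 6 gamma-linked pairs 3 passed in chow, and of the 20 pairs between both kinds 7 did. None of these 26 remained without the 2 farthest libraries. Whether r differs between the diets was not tested.

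**Figure D4:**
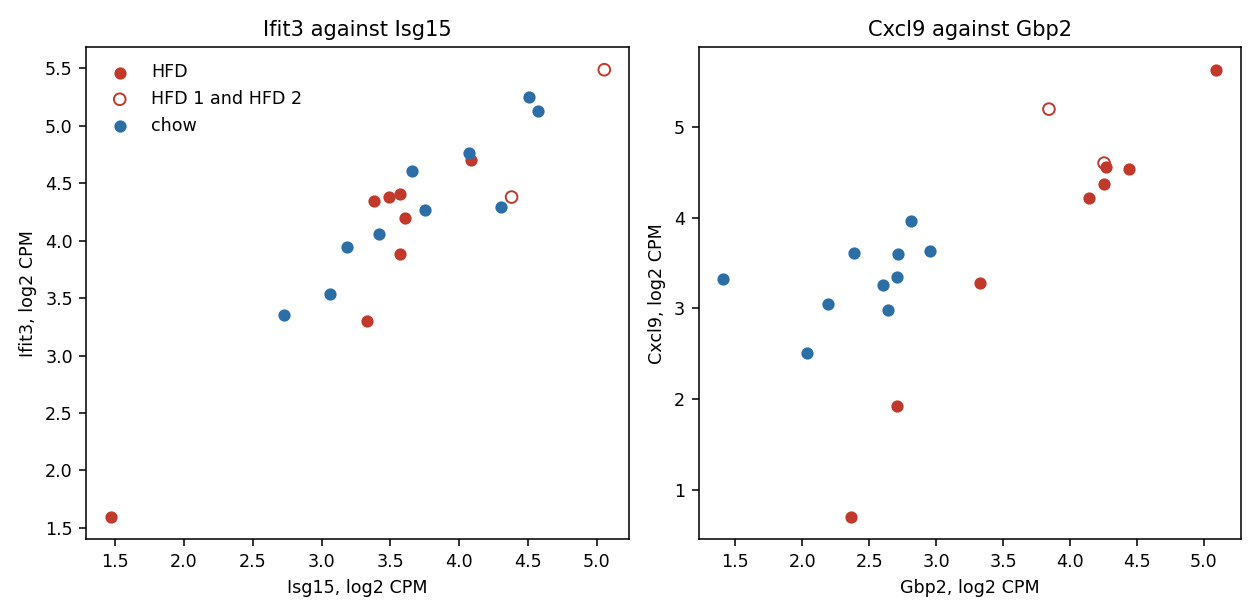
Log2 CPM of Ifit3 against Isg15 (left panel) and of Cxcl9 against Gbp2 (right panel), 1 point per library, with HFD red, HFD 1 and HFD 2 as open circles and chow blue. HFD and chow points mix along 1 line for Ifit3 and Isg15, whereas for Gbp2 and Cxcl9 most HFD points lie to the upper right of chow and HFD 6 and HFD 10 lie at or below the chow level of Cxcl9.

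Centred within each diet over all 20 libraries, the genes outside the 9 most like the type I-linked mean were Rtp4 (r = 0.954), Ifi206 (r = 0.953), Xaf1 (r = 0.943), Phf11b (r = 0.934) and Glipr1 (r = 0.924). Those most like the gamma-linked mean were Gbp6 (r = 0.924), Tgtp2 (r = 0.914), Slamf8 (r = 0.90), Ifit2 (r = 0.898) and Oxct1 (r = 0.887). The 5 closest genes were also taken over the 18 libraries without HFD 1 and HFD 2. For the type I-linked mean they were Rtp4 (r = 0.965), Tor3a (0.965), Oas3 (0.959), Xaf1 (0.95) and Ifit3b (0.949). For the gamma-linked mean they were Tgtp2 (r = 0.966), Gbp6 (0.949), Gbp10 (0.949), Sema4d (0.945) and Ecm2 (0.942). These coefficients are a description over shared libraries.

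Of the ligands, the interferon genes themselves were scarcely seen. Of 27 listed interferon and inducing cytokine genes only 3 had enough counts to be tested, Tnf, Il15 and Il18. Ifng, which encodes interferon gamma, had 14 counts over the 10 HFD libraries and 11 over the 10 chow libraries, and Ifnb1, which encodes interferon beta, had none in any library, so neither could be compared at this depth. Tnf, the inflammatory cytokine, rose (log2 3.44, SE 0.659, edgeR adjusted p = 0.000704), with 8 of 10 HFD libraries above every chow library, and averaged 2.31 ± 2.89 CPM in HFD and 0.186 ± 0.119 CPM in chow (SD, n = 10 each). Its rise was 5.28-fold without HFD 1 and HFD 2 (edgeR adjusted p = 0.000629), against 10.8-fold with them. Il15, a growth factor of NK cells, had a log2 value of 1.16 (edgeR adjusted p = 0.0698), and left out alone, HFD 1 or HFD 6 brought that p to 0.0481 or 0.0372, while HFD 2, its highest library, brought it to 0.205 at a log2 value of 0.54. The Il15 value was 0.61 without HFD 1 and HFD 2 (edgeR adjusted p = 0.106). Il18, which induces interferon gamma, had a log2 value of 0.19 (edgeR adjusted p = 0.634).

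Of 11 tested receptor, kinase and STAT genes, 3 rose and none fell, with a median log2 change of 0.15. Of all genes tested 13.0% were called higher. Leaving out HFD 1 and HFD 2 gave 4, beside 17.9% of all genes. With library totals as the only scaling or in either test on FPKM none was called. Without HFD 1 and HFD 2, library totals and log2(FPKM + 0.1) called 5 each, beside 3664 and 3289 of 14842 genes called higher. Both chains of the interferon gamma receptor were among the 3 called with all libraries. Ifngr1 averaged 30.6 ± 6.57 CPM in HFD and 19.4 ± 1.86 CPM in chow (SD, n = 10 each; log2 0.66, SE 0.130, edgeR adjusted p = 0.000911), with 9 of 10 HFD libraries above every chow library. Ifngr2 averaged 27.3 ± 5.69 CPM in HFD and 16.1 ± 1.26 CPM in chow (SD, n = 10 each), and all 10 HFD libraries exceeded every chow library (log2 0.75, SE 0.108, edgeR adjusted p = 2.6e-05). The third was Il10rb, a shared chain of the interferon lambda and interleukin receptors (log2 1.42, SE 0.156, edgeR adjusted p = 9.76e-07).

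The type I receptor chains were near 0 on the log2 scale, at 0.02 for Ifnar1 (edgeR adjusted p = 0.935) and 0.12 for Ifnar2 (edgeR adjusted p = 0.586). Ifnar2 rose by 0.25 without HFD 1 and HFD 2 (edgeR adjusted p = 0.0238) and Ifnar1 had a log2 value of 0.21 (edgeR adjusted p = 0.0530). Stat2 and Irf9, of the ISRE-binding complex, did not pass: the log2 value was 0.71 for Stat2 (edgeR adjusted p = 0.191) and -0.28 for Irf9 (edgeR adjusted p = 0.407). Stat2 became -0.12 without HFD 1 and HFD 2. Cxcr3, the receptor of Cxcl9 and Cxcl10, had 1.5 ± 1.64 CPM in HFD and 0.539 ± 0.175 CPM in chow (SD, n = 10 each; log2 1.29, edgeR adjusted p = 0.0973), and its edgeR adjusted p was 0.0105 without HFD 6, 0.167 without HFD 1 (its highest library) and 0.155 without HFD 1 and HFD 2, where the log2 value was 0.94.

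Of 26 tested sensor, adaptor and IRF genes, 12 rose and none fell, with a median of 0.50, beside 13.0% of all genes called higher. Without HFD 1 and HFD 2 13 rose, beside 17.9% of all genes. The replicate number as a block left 6 called, library totals 1, log2(FPKM + 1) 3 and log2(FPKM + 0.1) 1. Without HFD 1 and HFD 2, library totals called 15 and log2(FPKM + 0.1) 14, beside 3664 and 3289 of 14842 genes called higher. Irf8, a transcription factor of myeloid cells, was higher than every chow library in all 10 HFD libraries, at 28 ± 17.1 CPM in HFD and 6.09 ± 0.688 CPM in chow (SD, n = 10 each; log2 2.19, SE 0.253, edgeR adjusted p = 1.88e-06). Tlr4, the receptor for bacterial lipopolysaccharide, rose by 1.70 on the log2 scale (edgeR adjusted p = 0.000875), Tmem173, which encodes the DNA-sensing adaptor STING, by 1.12 (edgeR adjusted p = 0.00176), and the kinase gene Ikbke by 0.65 (edgeR adjusted p = 0.00145). Irf1, a transcription factor that interferon induces, had a log2 value of 0.05 (edgeR adjusted p = 0.896).

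Of 12 tested brakes on interferon signalling, 6 rose and 1 fell, with a median of 0.70. Of all genes tested 13.0% were called higher and 7.05% lower. Atf3, a stress-induced repressor, rose by 3.79 (edgeR adjusted p = 4.35e-07), and Tnfaip3, which encodes the NF-kappaB inhibitor A20, by 2.62 (edgeR adjusted p = 1.71e-05). The phosphatase genes Ptpn1 (log2 0.73, edgeR adjusted p = 5.03e-05) and Ptpn6 (log2 0.67, edgeR adjusted p = 0.00227) rose as well. Usp18, a classical type I target that removes Isg15 from proteins and blocks the type I receptor, averaged 9.78 ± 3.53 CPM in HFD and 16.3 ± 7.57 CPM in chow (SD, n = 10 each). It fell by 0.73 on the log2 scale (SE 0.258, edgeR adjusted p = 0.0490), with 4 of 10 HFD libraries below every chow library. That call was lost when any of HFD 1, 2, 3, 6, 8, 9 and 10 or chow 1, 2, 4, 6, 7 and 8 was left out alone, 13 of 20 cases, and the adjusted p was 0.0920 without HFD 1 and HFD 2.

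Among 47 other tested type I-induced genes 10 rose and none fell (median 0.36). Among 32 other tested interferon gamma-induced genes 5 rose and none fell (median 0.19). Of all genes tested 13.0% were called higher, and whether either list differs from that share was not tested. In the fit without HFD 1 and HFD 2 that share was 17.9%, and 9 of 47 type I-induced genes rose and none fell. Of 33 gamma-induced genes 7 then rose, and Gbp11, a further guanylate-binding protein gene named after its value was seen, fell. The counts of both lists depended on the processing. Leaving out 1 library gave 6 to 15 and 3 to 8 genes higher. Library totals gave 1 and 1, voom 5 and 2, the block 4 and 2, and either test on FPKM 1 and 0. Without HFD 1 and HFD 2, library totals gave 15 and 9 and log2(FPKM + 0.1) 15 and 7. In those 2 settings 3664 and 3289 of 14842 genes were called higher. The type I-induced genes with the smallest p were Slfn2, which restrains lymphocyte proliferation (log2 2.22, edgeR adjusted p = 3.44e-06), Ifitm1, a membrane protein that hinders virus entry (log2 0.91, edgeR adjusted p = 0.000294), the nucleic acid sensor gene Ifi204 (log2 1.37, edgeR adjusted p = 0.00502) and Epsti1 (log2 1.57, edgeR adjusted p = 0.00801), whose 2.97-fold rise was 1.67-fold without HFD 1 and HFD 2. The gamma-induced ones were Serpina3g, a protease inhibitor gene (log2 0.96, edgeR adjusted p = 0.000472), Ubd, a ubiquitin-like gene (log2 2.13, edgeR adjusted p = 0.000633), Cd274, which encodes the checkpoint ligand PD-L1 (log2 1.15, edgeR adjusted p = 0.0192), and Ciita, the activator of MHC class II genes (log2 1.53, edgeR adjusted p = 0.0318). The call of Ciita was lost when HFD 8, chow 2, chow 7 or chow 9 was left out alone. These 8 were picked by p and are not typical of their lists.

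The nearest relatives of the members did not pass the test. The log2 value was 0.59 for Ifit2, -0.42 for Ifit3b, 0.61 for Ifit1bl1, -0.63 for Gbp2b, 0.68 for Gbp5, 0.11 for Gbp7, -0.41 for Oasl1 and 0.95 for Cxcl11, with edgeR adjusted p of 0.143 (Oasl1) or more. Within the Gbp cluster on chromosome 3, Gbp2 and Gbp3 were thus called higher with all libraries, while Gbp2b, Gbp5 and Gbp7 were not. Without HFD 1 and HFD 2 neither Gbp3 (log2 0.63, edgeR adjusted p = 0.119) nor Gbp5 (log2 0.94, edgeR adjusted p = 0.0688) passed. Gbp3 was called in 8 and Gbp5 in 3 of 18 other settings. Differences between these genes were not tested.

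**Figure D5:**
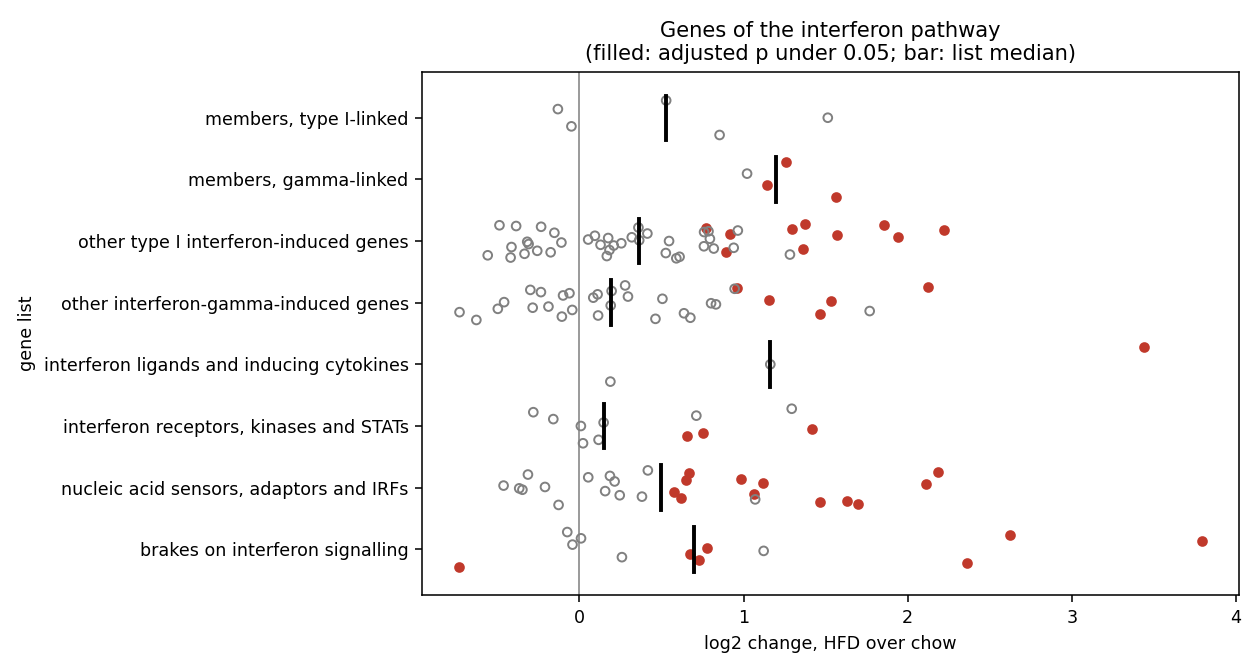
Log2 change of HFD over chow for every tested gene of the 2 groups of members and the 6 lists of pathway genes, 1 point per gene, filled red where the adjusted p was under 0.05, with a bar at each list's median. Medians run from 0.15 (receptors, kinases and STATs) to 1.20 (gamma-linked members), and Usp18 is the only filled point below 0.

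Markers of immune cells moved with the diet as well, and their part in the members' changes was not tested. For comparison with the marker counts here and below, 13.0% of all genes tested were called higher and 7.05% lower. Without HFD 1 and HFD 2 these shares were 17.9% and 10.4%. Of 17 macrophage and Kupffer cell markers 15 rose, and their summed level was 1642 to 3188 CPM in HFD and 543 to 929 CPM in chow. Of 15 tested T and NK cell markers 6 rose (11 without HFD 1 and HFD 2), with sums of 2.53 to 55.8 CPM in HFD and 8.11 to 12.3 CPM in chow. HFD 6, the lowest library for most members, had 2.53 CPM, and HFD 10 had 12.1 CPM. HFD 6 also had the lowest HFD sums of macrophage and Kupffer cell markers (1642 CPM) and of dendritic cell markers (40.2 CPM). Its sums of neutrophil (75.7 CPM) and plasmacytoid dendritic cell markers (41.9 CPM) were above the HFD medians (49.6 and 27.5 CPM). Of 5 tested plasmacytoid dendritic cell markers, from the cells best known for making type I interferon, 4 rose. All 9 listed markers of these cells summed to 160 CPM in HFD 1 and 118 CPM in HFD 2, the libraries with the highest Irf7 and Ifit1, against 10.2 to 41.9 CPM in the other 8 HFD libraries and 5.37 to 17.4 CPM in chow. In HFD 1 that sum was Tcf4 (112 CPM) and Siglech (48.5 CPM) alone, with the other 7 markers at 0, and in HFD 2 it was mostly Tcf4 (71.9 CPM) and Siglech (37.5 CPM). Ly6d, at up to 32.3 CPM in the other 8 HFD libraries, had 0 CPM in HFD 1 and 1.75 CPM in HFD 2.

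Of 9 dendritic cell markers 5 rose (40.2 to 428 CPM in HFD, 80.8 to 137 CPM in chow), and all 6 tested neutrophil markers rose (20.7 to 439 CPM in HFD, 3.89 to 5.07 CPM in chow, where the defining marker Ly6g was at 0). None of 6 B cell markers passed (2.24 to 208 CPM in HFD, 5.59 to 18.4 CPM in chow). Nor did any of 8 endothelial markers (99.6 to 314 CPM in HFD, 83.7 to 299 CPM in chow), of which 3, Cdh5, Lyve1 and Pecam1, rose without HFD 1 and HFD 2. Of 8 stellate cell markers 3 rose, or 5 without those 2 libraries (107 to 359 CPM in HFD, 93.5 to 227 CPM in chow), and of 5 cholangiocyte markers 1 rose, or 2 without them (18.3 to 130 CPM in HFD, 28.2 to 57.3 CPM in chow). Of 9 hepatocyte markers 3 fell, and without HFD 1 and HFD 2 3 fell and 1, Fgb, rose. Alb, the gene of the main hepatocyte product albumin, was not among those that fell, at 41277 CPM in HFD and 61341 CPM in chow (edgeR adjusted p = 0.183). No marker was at 0 in all libraries.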

How the data were processed

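Library preparation, strandedness, aligner, counting program and annotation: not given in the sources used here. Per the submitters' processing notes, reads were cleaned with fastp and the build was mm10. The deposited count table holds whole-number gene counts of all 20 libraries. The deposited FPKM table holds those counts scaled to the total of each column and to 1 fixed transcript length (27216 genes compared). GENCODE M21 gave symbols for 55141 of 55401 gene IDs, and the 260 others stayed in the tests without a symbol. Coordinates are GENCODE M21 on GRCm38, the assembly also called mm10, and promoter windows are RefSeq's for GRCm38.p6.

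The members, the gene lists, the cell type markers and the rule for named genes were chosen with earlier results of these data known. Listed symbols without a match (Tf, Mnda) were left out, and 1 listed signalling gene is not reported here. Named genes are the 9 members, their close relatives, the main signalling genes, up to 4 genes with the smallest p per pathway list and the 5 genes most like each group of members.

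The counts went into edgeR 4.0.16 (R 4.3.3; filterByExpr with a minimum count of 10 and a minimum total of 15, TMM scaling, robust quasi-likelihood fit, two-sided F test, Benjamini-Hochberg adjustment over 14542 genes), 10 HFD against 10 chow with no covariate. CPM is the count per 1000000 of TMM-scaled library size, and log2 CPM adds a prior count of 2. The fit was tested on simulated counts with known fold changes, drawn at each library's TMM-scaled size. Apart from those changes the simulated libraries shared 1 composition, so the make-up of HFD 1 and HFD 2 was not covered. Alternatives were DESeq2 1.42.0, limma 3.58.1 (voom, voom with sample quality weights, and limma-trend on log2(FPKM + 1) and log2(FPKM + 0.1), which understates changes of low genes), RLE, upper-quartile or no further scaling, no filter or 1 CPM in 10 libraries, edgeR without robust dispersion, nuclear genes only, the replicate number as a block, and leaving out each library or HFD 1 and HFD 2. Combinations of HFD 1 and HFD 2 left out with another test, scaling or unit, and the likeness and member pairs without them, were chosen after seeing the data. No pair within a diet was a duplicate by a chi-square test of counts (sampling alone gives about 1 per gene, tested where both libraries together had 50 counts or more): the closest pairs, HFD 4 with HFD 5 and chow 3 with chow 5, had 14.1 and 10.6 per gene. Pairs among HFD 3, HFD 4, HFD 5 and HFD 7 had 14.1 to 84.1, and all other HFD pairs 118 or more. Chow pairs had 10.6 to 217 without chow 9, and 886 or more with it. This check looks for duplicates only. Whether some libraries are more closely related, for example within the groups of the design text, was not tested. The tests took libraries as independent. Correlations were computed with scipy 1.17.1 and numpy 2.4.6 in Python 3.11.15, and tables and plots with pandas 2.3.3 and matplotlib 3.10.9.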

Additional observations from a re-analysis of the deposited data

Results flagged for a closer look

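The rule used here for a value far from the others of its diet was a gap to the nearest library of over 0.466 of the group's range. No member of the 9 had a library that met it. The rule looks for single libraries and can miss 2 that lie apart together. Irf7 (267 and 406 CPM) and Ifit1 (117 and 89.5 CPM) in HFD 1 and HFD 2 were missed in this way. The other HFD libraries reached at most 83.4 CPM for Irf7 and 9.26 CPM for Ifit1. Of 92 groups examined, among the members and the pathway genes named in the text, 17 held such a value, all in pathway genes. For independent, normally distributed values the rule would flag about 1 in 20 groups. The genes here share libraries and CPM was not on a log scale, so that rate is no yardstick for the 17.

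HFD 2 was highest of its diet for Gbp7 at 16.4 CPM (next 8.36), for Cxcl11 at 5.58 CPM (next 2.31), for Ifi204 at 72.6 CPM (next 23.1), for Il15 at 11.2 CPM (next 2.22) and for Ptpn6 at 47.6 CPM (next 31.9), and lowest for Ifngr1 at 14.0 CPM (next 27.1). HFD 1 was highest for Ifngr2 at 42.7 CPM (next 29.7) and for Cxcr3 at 5.77 CPM (next 2.45), and lowest for Ifnar2 at 13.6 CPM (next 28.2) and for Tlr4, at 0 CPM (next 2.55). These are the 2 libraries with most of their counts from the mitochondrial genome, and the part of that in these values was not tested.

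Apart from those 2 libraries, HFD 10 was highest for Ifitm1 at 18.8 CPM (next 11.4) and HFD 6 for Atf3 at 41.3 CPM (next 22.0). In chow, chow 1 was highest for Ifngr1 at 23.9 CPM (next 19.9) and for Atf3 at 1.57 CPM (next 1.12). Chow 2 was highest for Ubd at 1.70 CPM (next 1.04) and for Il18 at 19.5 CPM (next 15.3), and lowest for Gbp5 at 0.269 CPM (next 1.34).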

How the results depend on the processing

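In the fit reported above 2911 genes were called, 1886 higher and 1025 lower, with 3 members higher, none lower and a member median of 1.02. Gbp2 stayed called in 20 of 20 fits that left out 1 library and in 16 of 18 other settings, Cxcl10 in 20 and 12, and Gbp3 in 12 and 8. Leaving out 1 library gave 2424 to 3330 genes, 2 to 4 members higher, 0 lower and a median of 0.78 to 1.16. Over the other settings no member was called lower, and the median was 0.05 (log2(FPKM + 0.1)) to 1.09 (RLE scaling). Depth limits HFD 1 and HFD 2 most.

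The calls moved most with how HFD 1 and HFD 2 were scaled or weighted. Library totals only called 600 genes, 507 higher and 93 lower, and 1 member, Gbp2. Voom called 1 member, 1261 genes higher and 1329 lower, and with sample quality weights 5364 genes, 2614 higher and 2750 lower, and 5 members, the 4 gamma-linked ones and Oasl2. The tests on log2(FPKM + 1) and log2(FPKM + 0.1) called 716 and 495 genes and 0 members. Without HFD 1 and HFD 2 DESeq2 called 4660 genes, and voom called 1 member. Library totals and log2(FPKM + 0.1) then called 2 members each. The median over all genes was 0.13 with no filter, -0.14 on log2(FPKM + 1), -0.39 on log2(FPKM + 0.1), and, without HFD 1 and HFD 2, 0.19 with library totals and 0.16 on log2(FPKM + 0.1), so changes in those settings are relative to these shifts. Of the member pairs 42 passed, 24 by Spearman's rho and 15 without the 2 farthest libraries. The cause of these shifts was not tested.

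HFD and chow libraries share replicate numbers, but same-numbered libraries did not deviate together (r of -0.11 to 0.13, over 0.1 in 2 of 10 pairs, and 1 of 10 HFD libraries matched its own number best). With the replicate number as a block 1574 genes and 1 member were called.

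Log2 values that did not pass the test changed sign in places. With library totals only this held for Irf7 (-0.12), Ifit1 (-0.083), Stat2 (-0.11), Gbp7 (-0.23), Cxcl11 (-0.29) and Il18 (-0.32). Isg15 was 0.036 with DESeq2, 0.026 with RLE scaling, 0.013 with upper-quartile scaling and 0.012 with the filter of 1 CPM. Voom gave Ifit1 -0.32, Stat2 -0.090, Irf1 -0.0082, Gbp7 -0.39, Cxcl11 -0.42 and Il18 -0.23. With quality weights the values were Isg15 0.011, Ifit1 -0.13, Ifit3 0.071, Stat2 -0.020, Irf9 0.092, Ifit3b 0.013, Gbp7 -0.18, Cxcl11 -0.39 and Il18 -0.15. On log2(FPKM + 1) they were Irf7 -0.057, Ifit1 -0.087, Stat2 -0.18, Irf1 -0.31, Ifnar1 -0.21, Ifnar2 -0.23, Gbp7 -0.17, Cxcl11 -0.028 and Il18 -0.40. On log2(FPKM + 0.1) they were Irf7 -0.057, Ifit1 -0.14, Stat2 -0.23, Irf1 -0.52, Ifnar1 -0.45, Ifnar2 -0.38, Gbp7 -0.52, Cxcl11 -0.18 and Il18 -0.44. The block gave Irf1 -0.055, Ifnar1 -0.036, Gbp7 -0.27 and Cxcl11 -0.063.

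Without HFD 1 and HFD 2, edgeR gave Irf7 -0.14, Ifit1 -0.47, Stat2 -0.12, Gbp7 -0.16, Cxcl11 -0.60 and Il18 -0.26. DESeq2 then gave Irf7 -0.16, Ifit1 -0.49, Stat2 -0.14, Gbp7 -0.17, Cxcl11 -0.63 and Il18 -0.29. Voom then gave Irf7 -0.088, Ifit1 -0.53, Stat2 -0.24, Gbp7 -0.41, Cxcl11 -1.11 and Il18 -0.28. Library totals then gave Irf7 -0.0011, Ifit1 -0.29, Irf9 0.023, Cxcl11 -0.44 and Il18 -0.12, and log2(FPKM + 0.1) gave Ifit1 -0.33, Stat2 -0.073, Gbp7 -0.15, Cxcl11 -0.26 and Il18 -0.11. With 1 library left out, Isg15 ranged over -0.26 to 0.083, Ifit3 over -0.31 to 6.29e-05, Irf1 over -0.033 to 0.17, Ifnar1 over -0.057 to 0.12, Il18 over -0.054 to 0.27, Gbp7 over -0.23 to 0.25 and Cxcl11 over -0.25 to 1.14.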
